A study of Rattus norvegicus with 6 samples.

Results

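The receptors for fibroblast growth factors, their docking adaptors and their heparan sulfate co-receptors were followed in H9C2, a rat myoblast line that was established from embryonic heart tissue. The 10 genes were Fgfr1, Fgfr2, Fgfr3, Fgfr4, Fgfrl1, Frs2, Frs3, Gab1, Sdc4 and Gpc1. They were taken by gene name from a deposited RNA sequencing table of 32623 rows, in which each name was found once. The 6 libraries formed 3 groups of 2. All cells were cultured in medium with 1 g/L glucose. Ctrl cells were untreated with a control genotype, HG cells had the same genotype and were held in 33 mM glucose for 8 h, and siFGFR1+HG cells were labelled as an FGFR1 knockdown, made with FGFR1 siRNA ahead of the same glucose exposure. The labels name no control siRNA, so the siRNA sequence and the transfection cannot be told apart, and no osmotic control is named. Whether the paired libraries of each group stem from separate cultures is not in the labels. The p-values therefore set each difference against the spread of these samples only, and that spread may be technical.

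Counts per library summed to between 46960084 and 75021470, with Ctrl 2 the deepest. Of 8 myoblast and muscle lineage markers, 6 were at 1 FPKM or more (fragments per kilobase of gene, scaled to library size, a level per length) in every library, among them Myod1 at 62.9 to 67.4 FPKM. Myf5 was at a count of 0 throughout. Of 7 cardiomyocyte markers, 5 were under 1 FPKM in every library, Myh6, Nppa, Tnni3, Actc1 and Ryr2, while the cardiac transcription factor genes Gata4 and Nkx2-5 lay at 3.83 to 5.40 FPKM.

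As background, the receptors FGFR1 to FGFR4 are tyrosine kinases that bind an FGF together with heparan sulfate, pair up and phosphorylate each other. FGFRL1 binds FGFs but lacks the kinase domain. FRS2 and its relative FRS3 sit at the membrane, bind the receptor and recruit GRB2 and the phosphatase SHP2, which feed the RAS and ERK cascade, while GAB1 brings in PI3-kinase. Syndecan 4 (Sdc4) and glypican 1 (Gpc1) carry the heparan sulfate chains that hold the ligand at the receptor. In muscle, FGF signalling is known for keeping myoblasts dividing and delaying their differentiation.

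Promoter sequences from RefSeq (build GRCr8) matched 8 of the 10 genes, all but Fgfr1 and Gpc1. Those of Fgfr2 and Frs2, which were higher in siFGFR1+HG than in HG, and of Sdc4, which was higher in HG than in Ctrl, are shown from 250 bases before to 50 bases after the gene start, 5′ to 3′ on the gene's own strand. In Fgfr2 (chr1:194280865-194281164, minus strand) the capitals mark the Sp1 motif GGGCGG on either strand, in Frs2 (chr7:54678607-54678906, minus strand) the ETS motif CCGGAAG, and in Sdc4 (chr3:173592874-173593173, minus strand) the NF-kB consensus.
Fgfr2: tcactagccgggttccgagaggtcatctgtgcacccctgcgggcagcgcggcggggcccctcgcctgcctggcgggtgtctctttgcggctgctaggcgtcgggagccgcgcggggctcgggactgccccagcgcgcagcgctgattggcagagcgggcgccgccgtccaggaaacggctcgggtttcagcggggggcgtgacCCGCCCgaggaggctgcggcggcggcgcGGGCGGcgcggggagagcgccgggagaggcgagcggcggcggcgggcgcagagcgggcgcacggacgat
Frs2: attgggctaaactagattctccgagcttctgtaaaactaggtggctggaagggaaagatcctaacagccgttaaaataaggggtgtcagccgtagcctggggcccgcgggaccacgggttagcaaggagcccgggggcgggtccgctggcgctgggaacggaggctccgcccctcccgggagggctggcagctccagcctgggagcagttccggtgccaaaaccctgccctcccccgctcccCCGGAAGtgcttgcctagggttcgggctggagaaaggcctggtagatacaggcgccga
Sdc4: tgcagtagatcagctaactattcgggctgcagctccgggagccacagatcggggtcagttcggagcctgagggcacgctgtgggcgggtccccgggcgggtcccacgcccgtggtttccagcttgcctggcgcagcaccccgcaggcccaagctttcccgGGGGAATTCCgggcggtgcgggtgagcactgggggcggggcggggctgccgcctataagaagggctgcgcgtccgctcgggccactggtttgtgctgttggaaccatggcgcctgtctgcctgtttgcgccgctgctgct

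All 8 promoters were rich in G and C, at 63.3% to 77.7% against a median of 51.7% over 33469 rat promoters of the same length. The Sp1 motif was present in 8 of 8, against 33.1% of all promoters. That motif holds only G and C, and its share in promoters of like composition was not compared. The NF-kB consensus was found in Sdc4, at positions -90 to -81 from the gene start, and in Fgfr4, against 4.18% of all promoters. The ETS motif was found in Frs2, at -8 to -2 (8.75% of all), and the E-box CACGTG in Fgfrl1 (6.42% of all). No match in these windows was found for the AP-1 motif TGANTCA, the sterol element TCACNCCAC, the cyclic AMP element TGACGTCA or the CArG box of serum response factor. Both strands were searched and the motifs do not share letters at the marked places, except that the NF-kB match in Sdc4 is followed directly by an Sp1 match. A match describes the letters and was not linked to binding in these cells.

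The 10 genes differed widely in level. Gpc1, the only glypican among them, was the most abundant at 194 to 253 FPKM and ranked between 276 and 401 among all rows of the table in the 6 libraries. Sdc4 followed at 36.6 to 42.2 FPKM, then Frs2 at 12.1 to 17.1 and Gab1 at 9.86 to 12.3. The receptors lay lower: Fgfr2 at 7.03 to 9.54 FPKM, the kinase-free Fgfrl1 at 2.83 to 3.78, Fgfr3 at 1.26 to 2.17, Fgfr4 at 0.134 to 0.255 and Fgfr1 at or near 0. This order held in each of the 6 libraries with 1 exception. Frs3, at 1.05 to 2.03 FPKM, was above Fgfr3 in 3 libraries and below it in the other 3, so their order is not set beyond the spread. Frs2 and Gab1 overlapped across groups, although Frs2 was the higher within each library.

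**Figure D1:**
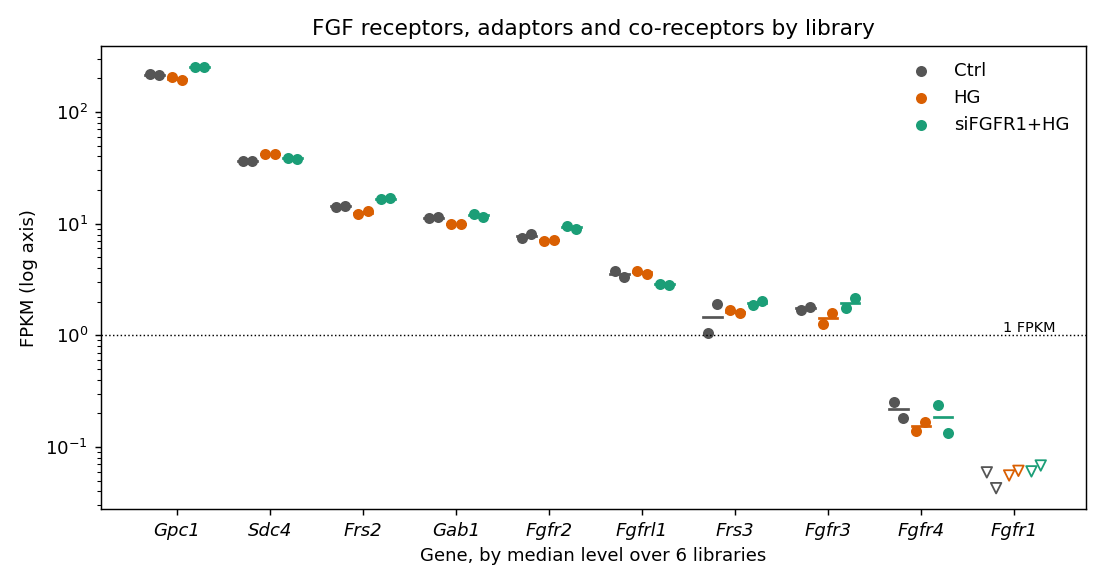
FPKM of each of the 10 genes (log axis) in the 6 libraries, with points for libraries and bars for group means; open triangles for Fgfr1 mark the level that 12 counts would give, since its own counts were 0 to 4. Gpc1 lies highest at 194 to 253 FPKM, Fgfr2 is the highest of the receptor rows as counted, and Fgfr4 stays under 1 FPKM.

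Fgfr1, the gene named as the siRNA target and the main FGF receptor of many mesenchymal cells, was hardly detected in any library. The Ctrl libraries had counts of 0 and 4, both HG libraries had 0, and the siFGFR1+HG libraries had 4 and 0, so the libraries do not separate by group. Small counts in the table peaked at multiples of 4, and a floor set at 12 counts, which is 3 fragments if each gave 4 counts, corresponds to 0.0428 to 0.0683 FPKM for this gene, which covers counting error only. Against that floor Fgfr1 was at least 116-fold lower than Fgfr2 in every library, per length. The knockdown therefore cannot be checked from this row, and no fold is given. In the table's coordinates, whose build is not sure, the row lies on chromosome 16 from 71266248 to 71319449 on the minus strand and lists 2 transcripts. On that chromosome Letm2 and Nsd3, which both end before the row begins, were detected, Letm2 at 266 to 507 counts and Nsd3 at 1568 to 2909. Genes beyond the other end of the row were not examined. None of 59 rows for cytosolic ribosomal protein genes, which every cell uses, was under the floor in all libraries. Whether the row reflects the cells or the way reads were assigned to it was not tested.

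Fgfr2 had the most counted transcript of the receptor kinases here. It held 79.5% to 83.4% of the summed FPKM of Fgfr1 to Fgfr4 in each library. The share takes the near-empty Fgfr1 row at face value, and whether that row reflects the cells was not tested. The level of Fgfr2 was 7.48 and 8.11 FPKM in Ctrl, 7.03 and 7.16 in HG, then 9.54 and 8.95 in siFGFR1+HG. Both siRNA libraries lay above all others, and both HG libraries lay just under both Ctrl libraries. Relative to HG, siFGFR1+HG had 1.31 times as much Fgfr2 (log2 0.39 ± 0.06, SE, n = 2 per group; adjusted p = 0.00490). This and every further adjusted p, unless another tool is named, comes from the quasi-likelihood test of edgeR, with Benjamini-Hochberg adjustment over 12229 genes. Against Ctrl it was 1.18-fold higher after the siRNA (log2 0.24 ± 0.06, adjusted p = 0.0348), a call that held in 4 of 14 alternative settings and was lost whichever of the 6 libraries was left out (adjusted p = 0.0545 to 0.174) and with the replicate number as a block (adjusted p = 0.0575). HG and Ctrl did not differ by the test (log2 -0.15 ± 0.06, adjusted p = 0.152).

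Fgfr3, a receptor kinase best known from growth cartilage, was at 1.68 and 1.81 FPKM in Ctrl, 1.26 and 1.60 in HG, then 1.75 and 2.17 in siFGFR1+HG. The HG libraries were the lowest, but the spread inside HG and inside siFGFR1+HG was 1.26-fold and 1.24-fold. It did not pass in any comparison, with the interval for siFGFR1+HG against HG reaching from 0.01 to 0.92 on the log2 scale (95%, adjusted p = 0.114). Fgfr4, the receptor kinase known for its role in liver bile acid control, had 48 and 48 counts in Ctrl, 28 and 31 in HG, then 45 and 22 in siFGFR1+HG. That is too little for the test, which took genes with 1 FPKM or more in 2 or more libraries. In the fit with no such filter its log2 differences of -0.52, 0.30 and -0.22 had standard errors of 0.50 to 0.51 and did not pass.

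Fgfrl1, the receptor without a kinase domain, was at 3.76 and 3.33 FPKM in Ctrl, 3.78 and 3.56 in HG, then 2.88 and 2.83 in siFGFR1+HG. The siRNA libraries were the lowest and did not overlap with either other group. The difference from HG was log2 -0.35 ± 0.11, just short of the threshold (adjusted p = 0.0516), and that from Ctrl was -0.32 ± 0.11 (adjusted p = 0.0821). Both passed in 1 of 14 alternative settings, the DESeq2 Wald test (adjusted p = 0.0204 and 0.0429). HG and Ctrl overlapped.

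The ratio of Fgfr2 to Fgfrl1 in FPKM puts the kinase receptor with the most counted transcript beside the kinase-free one within each library. It was 1.99 and 2.43 in Ctrl, 1.86 and 2.01 in HG, then 3.32 and 3.17 in siFGFR1+HG. The siRNA libraries stood above the other 4, while Ctrl and HG overlapped. With 2 libraries per group a two-sided exact permutation test can give no p below 0.333, so the ratio is given as a description.

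**Figure D2:**
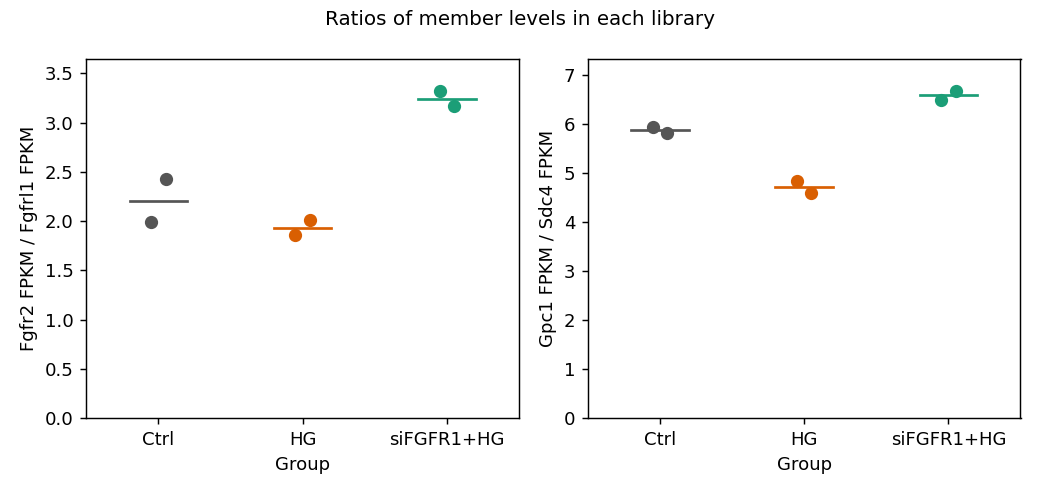
Ratio of Fgfr2 to Fgfrl1 (left) and of Gpc1 to Sdc4 (right) in FPKM, on axes from 0, for the 2 libraries of each group (points) with the group mean (line). The siFGFR1+HG libraries reach 3.17 and 3.32 on the left and 6.50 and 6.67 on the right, above every Ctrl and HG library.

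Among the adaptors Frs2, the docking protein that links the receptors to ERK, was at 14.2 and 14.4 FPKM in Ctrl, 12.1 and 13.0 in HG, then 16.5 and 17.1 in siFGFR1+HG. The 3 groups did not overlap, with HG lowest and siFGFR1+HG highest. Relative to HG, siFGFR1+HG had 1.35 times as much Frs2 (log2 0.43 ± 0.05, adjusted p = 0.00149), and relative to Ctrl 1.17 times as much (0.22 ± 0.05, adjusted p = 0.0192). In HG it was lower than in Ctrl by log2 -0.21 ± 0.05 (adjusted p = 0.0374). The first of these calls held in all 14 alternative settings. The second held in 10 and was lost on leaving out either Ctrl or either siFGFR1+HG library (adjusted p = 0.0501 to 0.107). The HG call held in 6 and was lost without every library but HG 2 (adjusted p = 0.0547 to 0.142).

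Gab1, the docking protein that recruits PI3-kinase, was at 11.2 and 11.4 FPKM in Ctrl, 9.86 and 9.88 in HG, then 12.3 and 11.4 in siFGFR1+HG. HG was again the lowest group, and siFGFR1+HG 2 lay just above Ctrl. From HG to siFGFR1+HG it rose 1.21-fold (log2 0.28 ± 0.07, adjusted p = 0.0269), a call lost without Ctrl 1, HG 1, HG 2 or siFGFR1+HG 1 (adjusted p = 0.0551 to 0.113) and with the replicate block (adjusted p = 0.0505). The difference between HG and Ctrl missed the threshold (log2 -0.22 ± 0.07, adjusted p = 0.0919). Against Ctrl the siRNA group differed by log2 0.06, with an interval of -0.10 to 0.23.

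Frs3, the close relative of Frs2, was at 1.05 and 1.90 FPKM in Ctrl, 1.69 and 1.58 in HG, then 1.88 and 2.03 in siFGFR1+HG. Its Ctrl libraries differed 1.80-fold, at 120 and 298 counts, and covered most of the range of the other groups. No comparison passed, and for siFGFR1+HG against HG the interval of the log2 difference was -0.42 to 0.97. Frs2 exceeded Frs3 by 7.19 to 13.51 times in FPKM, with the largest ratio in Ctrl 1.

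The co-receptors did not share 1 pattern. Gpc1, a glypican held to the membrane by a lipid anchor, was at 218 and 213 FPKM in Ctrl, 204 and 194 in HG, then 253 and 253 in siFGFR1+HG. Groups did not overlap, and the siRNA libraries stood well above the rest. Gpc1 in siFGFR1+HG was 1.29 times its HG level (log2 0.36 ± 0.03, adjusted p = 0.000791) and 1.17 times its Ctrl level (0.23 ± 0.03, adjusted p = 0.00460), and both calls held in all 14 alternative settings. Its fall in HG was small (log2 -0.13 ± 0.03, adjusted p = 0.0436). That call held in 4 of 14 settings and was lost without any library except HG 1 (adjusted p = 0.0751 to 0.200) and with the replicate block (adjusted p = 0.0540).

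Sdc4, a transmembrane syndecan that also binds protein kinase C at adhesion sites, was at 36.6 and 36.6 FPKM in Ctrl, 42.2 and 42.2 in HG, then 39.0 and 37.9 in siFGFR1+HG. HG was the highest group and Ctrl the lowest, the reverse of the pattern of Frs2 and Gpc1 for HG. It was 1.14-fold higher in HG than in Ctrl (log2 0.19 ± 0.03, adjusted p = 0.0209), a call lost on leaving out either Ctrl or either HG library (adjusted p = 0.0679 to 0.107). In siFGFR1+HG it was lower than in HG by log2 -0.12 ± 0.03 (adjusted p = 0.0442). That call held in 2 of 14 settings only, was lost with DESeq2 size factors in the same fit (adjusted p = 0.0551), with the replicate block (adjusted p = 0.0735) and without any 1 library (adjusted p = 0.0718 to 0.174). Against Ctrl the difference was log2 0.07, with an interval of -0.02 to 0.15. The ratio of Gpc1 to Sdc4 in FPKM was 5.95 and 5.81 in Ctrl, 4.83 and 4.60 in HG, then 6.50 and 6.67 in siFGFR1+HG. Groups did not overlap in this ratio, nor in either gene alone, so it is a description and no further evidence. By contrast, the ratios of Frs2 to Fgfr2 and of Fgfr2 to Fgfr3 overlapped between groups.

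Counted over the 8 of 10 genes that were tested, HG against Ctrl had 1 higher (Sdc4), 2 lower (Frs2 and Gpc1) and 5 not called, where 13.7% of all tested genes were called, 5.81% higher and 7.85% lower. For siFGFR1+HG against HG there were 4 higher (Fgfr2, Frs2, Gab1 and Gpc1), 1 lower (Sdc4) and 3 not called, with 29.9% of all tested genes called, 14.1% higher and 15.9% lower. For siFGFR1+HG against Ctrl there were 3 higher (Fgfr2, Frs2 and Gpc1), 0 lower and 5 not called, with 22.3% of all tested genes called, 9.82% higher and 12.4% lower. Against that 0, 1 gene was lower at an unadjusted p under 0.05, Fgfrl1, and DESeq2 called the same gene. The median log2 difference of the 8 genes was -0.14, 0.32 and 0.19 in the 3 comparisons, against 0.00, -0.01 and 0.01 over all tested genes. FPKM did not overlap between the groups compared in 6, 8 and 6 of the 8 genes, where 60.1%, 66.5% and 63.8% of all tested genes did not overlap, so the counts of 6 exceed their background by little. Leaving out 1 library lowered these counts of called genes. The 3 in HG against Ctrl became 0 without either Ctrl library and 1 without any other. The 5 in siFGFR1+HG against HG became 3 without Ctrl 1, HG 1, HG 2 or siFGFR1+HG 1, and the 3 in siFGFR1+HG against Ctrl became 1 without any Ctrl or siFGFR1+HG library. Each pair of comparisons shares the libraries of 1 group, so opposite or like signs between them are not separate evidence.

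**Figure D3:**
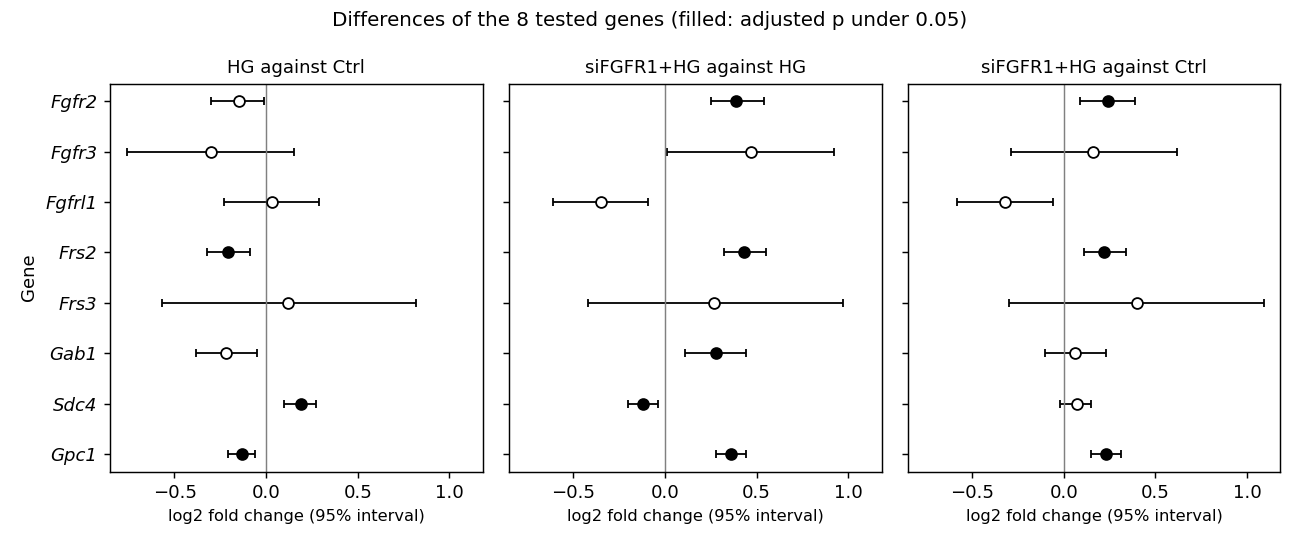
Log2 fold change of the 8 tested genes in the 3 comparisons (points) with 95% intervals from edgeR's quasi-likelihood fit (bars); filled points passed at an adjusted p under 0.05. Fgfr2, Frs2, Gab1 and Gpc1 lie right of 0 and Sdc4 left of 0 for siFGFR1+HG against HG, while Fgfr3 and Frs3 have the widest intervals.

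The summed level of 6 fibroblast-type markers was 80.0 to 81.7 FPKM in Ctrl, 66.5 to 67.6 in HG and 85.2 to 91.0 in siFGFR1+HG. That sum came from Pdgfrb and Ddr2, while 4 of the 6 markers were under 1 FPKM in all libraries, with Tcf21 at a count of 0 and Dcn at most at 0.101 FPKM. The summed muscle lineage list was 2000 to 2120 FPKM in Ctrl, 1710 to 1760 in HG and 1810 to 1850 in siFGFR1+HG. Most of it was Vim, a general mesenchymal gene at 1490 to 1870 FPKM. Among the lineage genes, Myod1 ranged over the libraries from 62.9 to 67.4 FPKM and Cdh15 from 116 to 139. Others varied more, Myog from 16.1 to 27.4, Des from 4.25 to 7.80 and Myh3 from 4.35 to 9.97 FPKM. Chrna1 lay at 0.123 to 0.824 FPKM. Epithelial markers, nearly all Krt8, summed to 25.7 to 26.1, 19.6 to 21.3 and 18.3 to 19.6 FPKM. The part of these shifts in the results was not tested, and in bulk RNA fewer cells of a type and less RNA per cell cannot be told apart.

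Genes whose profile over the 6 libraries came closest were sought among 7939 tested genes that averaged 5 FPKM or more, for the 3 genes with the smallest p in siFGFR1+HG against HG. The measure was the root-mean-square difference of mean-centred log2 CPM (counts scaled to library size). For Gpc1 they were Adamtsl5 (0.0154), Atp8b2 (0.0173) and Kmt2d (0.0212). For Frs2 they were Abcc5 (0.0204), Oga (0.0232), which encodes the enzyme that removes O-GlcNAc from proteins, and Adamts12 (0.0281). For Fgfr2 they were Golgb1 (0.0304), Brd1 (0.0304) and Myadm (0.0355). The log2 differences of these 9 genes ran from -0.24 to -0.12 for HG against Ctrl and from 0.32 to 0.48 for siFGFR1+HG against HG. Being chosen for their likeness to the 3 genes over the same libraries, they had to share this shape.

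Around the receptors, 121 further genes of the pathway were listed, of which 83 were measured at a testable level. In HG against Ctrl 2 of the 83 were higher, 13 lower and 68 not called (median log2 -0.04). In siFGFR1+HG against HG 23 were higher, 11 lower and 49 not called (median 0.06), and in siFGFR1+HG against Ctrl 15 were higher, 11 lower and 57 not called (median 0.02). Over all tested genes, 13.7%, 29.9% and 22.3% were called in these comparisons, and the counts of each list below are to be read beside those shares. The 15 calls of the first comparison became 6, 8, 9 and 5 without Ctrl 1, Ctrl 2, HG 1 and HG 2, the 34 of the second became 21 without HG 2, and the 26 against Ctrl became 16 without Ctrl 2 or siFGFR1+HG 1.

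Of other membrane partners of the receptors 7 were tested, and for siFGFR1+HG against HG 3 were higher and 2 lower. Sdc1, the most abundant syndecan here, fell from 221 ± 2.09 to 177 ± 6.20 FPKM (SD, n = 2; log2 -0.31 ± 0.03, SE, adjusted p = 0.000983). The glypican gene Gpc4 fell from 90.9 ± 0.557 to 70.2 ± 0.547 FPKM (log2 -0.36 ± 0.04), and Gpc6 rose from 13.6 ± 0.0917 to 19.7 ± 1.60 FPKM (0.55 ± 0.08). Glypicans and syndecans thus did not shift as 1 group: Gpc1, Gpc6 and Sdc2 (0.21 ± 0.04) rose, while Gpc4, Sdc1 and Sdc4 fell, with the call of Sdc2 lost without HG 2 or either siRNA library and that of Sdc4 lost without any 1 library. Between HG and Ctrl 1 partner was higher, Gpc4 (0.18 ± 0.04), and 2 were lower, Gpc6 (-0.47 ± 0.08) and the adhesion molecule gene Ncam1 (-0.28 ± 0.04). The call of Gpc4 was lost on leaving out either Ctrl or either HG library. That of Gpc6 was lost without Ctrl 1, HG 1 or HG 2, and that of Ncam1 without Ctrl 2 or HG 2. The 5 partners called in siFGFR1+HG against HG became 3 without HG 2 or siFGFR1+HG 2, and the 3 in HG against Ctrl became 0 without HG 2 and 1 without Ctrl 1, Ctrl 2 or HG 1. The klotho co-receptor gene Kl was at most at 0.0178 FPKM, and Il17rd, an inhibitor of FGF receptors at the membrane, at most at 0.599 FPKM.

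Of the enzymes that build and edit heparan sulfate 14 of 20 were tested, with 3 higher and 0 lower in siFGFR1+HG than in HG. Over all tested genes 29.9% were called in that comparison, 14.1% higher and 15.9% lower. Hs6st1, which adds sulfate at the 6-O position, rose from 20.2 ± 0.355 to 29.8 ± 1.12 FPKM (SD, n = 2; log2 0.57 ± 0.05, SE, adjusted p = 0.000573). Ndst1, the first sulfating enzyme of the chain, rose by log2 0.52 ± 0.05, and the chain polymerase gene Ext2 by 0.17 ± 0.03, the latter lost without siFGFR1+HG 1. Under HG 0 were higher and 1 lower than in Ctrl, the chain initiation gene Extl3 (-0.25 ± 0.06, lost on leaving out either Ctrl or either HG library). Against Ctrl, siFGFR1+HG had 4 higher and 1 lower, with Hs6st1 again first (0.56 ± 0.05). These 5 calls became 1 without Ctrl 1, Ctrl 2 or siFGFR1+HG 1 and 2 without siFGFR1+HG 2.

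Of 23 genes for FGF ligands and their binding proteins 7 were tested. Fgf7, an epithelial growth factor made by mesenchymal cells, was the most abundant at 21.6 to 25.6 FPKM in group means and did not pass in any comparison. Fgf1, a ligand of all the receptor kinases, fell from 11.7 ± 0.340 to 9.35 ± 0.301 FPKM in siFGFR1+HG against HG (SD, n = 2; log2 -0.31 ± 0.05, SE). Fgf18 rose by 1.26 ± 0.31, a call lost without HG 2 or either siRNA library. Fgf2 lay at 0.0713 to 0.446 FPKM, under the testable level. For HG against Ctrl 0 of the 7 passed with edgeR (smallest adjusted p = 0.0528, for Fgf1) and 1 with DESeq2, and for siFGFR1+HG against Ctrl 0 passed with either tool (smallest edgeR adjusted p = 0.118, also for Fgf1). Fgf1 was the 1 ligand at an unadjusted edgeR p under 0.05 in each of these comparisons.

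Inside the cell, all 20 listed genes of the RAS and ERK cascade were tested, and in siFGFR1+HG against HG 6 were higher and 3 lower. Nf1, which encodes a RAS inhibitor, rose from 4.88 ± 0.0401 to 6.69 ± 0.339 FPKM (SD, n = 2; log2 0.47 ± 0.06, SE, adjusted p = 0.00192). Mapk3, the gene of ERK1, rose by 0.22 ± 0.05, a call lost without HG 1, HG 2 or siFGFR1+HG 1. In HG against Ctrl 0 were higher and 4 lower. They included Rasa1, another RAS inhibitor (-0.31 ± 0.04), Nf1 (-0.44 ± 0.06) and the scaffold gene Ksr1 (-0.43 ± 0.10), which lost its call without any 1 library. Against Ctrl, siFGFR1+HG had 2 higher, among them Mapk3 (0.35 ± 0.05), and 1 lower, Rasa1 (-0.35 ± 0.04). The 9 cascade genes called in siFGFR1+HG against HG became 3 without HG 2 and 4 without HG 1 or either siRNA library, and the 4 in HG against Ctrl became 2 without Ctrl 1 or HG 2.

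Of 21 tested genes for PI3-kinase, phospholipase C, STAT and other proteins near the receptor, 8 were higher and 0 lower in siFGFR1+HG than in HG. Cblb, a ubiquitin ligase that acts on activated receptors, rose by log2 0.52 ± 0.05 (adjusted p = 0.000844), and the transcription factor gene Stat3 by 0.25 ± 0.04. In HG against Ctrl 1 was higher, Grb14, an inhibitory adaptor of receptor kinases (0.41 ± 0.04), and 4 were lower, among them the kinase gene Pdpk1 (-0.59 ± 0.12, lost without Ctrl 1, Ctrl 2 or HG 2). Against Ctrl, siFGFR1+HG had 6 higher and 1 lower, led by Grb14 (0.46 ± 0.05) and Cblb (0.44 ± 0.05). The 8 calls against HG became 5 without either HG library, and the 7 against Ctrl became 4 without Ctrl 2 or siFGFR1+HG 1. The 5 in HG against Ctrl became 2 without Ctrl 1 or HG 2 and 3 without Ctrl 2 or either siRNA library.

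Of 14 tested genes of ERK feedback and output, 2 were higher and 5 lower in siFGFR1+HG than in HG. The ETS factor gene Etv4 fell from 21.9 ± 0.248 to 11.3 ± 0.773 FPKM and the cyclin gene Ccnd1 from 141 ± 3.24 to 105 ± 1.06. The immediate-early gene Egr1 rose from 16.7 ± 0.322 to 39.0 ± 0.294 FPKM (SD, n = 2). The other higher gene was Fos, at 1.18 ± 0.157 FPKM in HG and 2.02 ± 0.227 in siFGFR1+HG. Its call was lost whichever library was left out, and also with the replicate number as a block (adjusted p = 0.0582). In HG against Ctrl 0 were higher and 2 lower, Egr1 and the ERK phosphatase gene Dusp6, whose call needed all 4 libraries of that comparison. Against Ctrl, siFGFR1+HG had 2 higher and 5 lower, with Ccnd1 (-0.51 ± 0.03), Etv4 (-0.90 ± 0.06) and Dusp6 (-0.92 ± 0.06) the 3 smallest p.

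**Figure D4:**
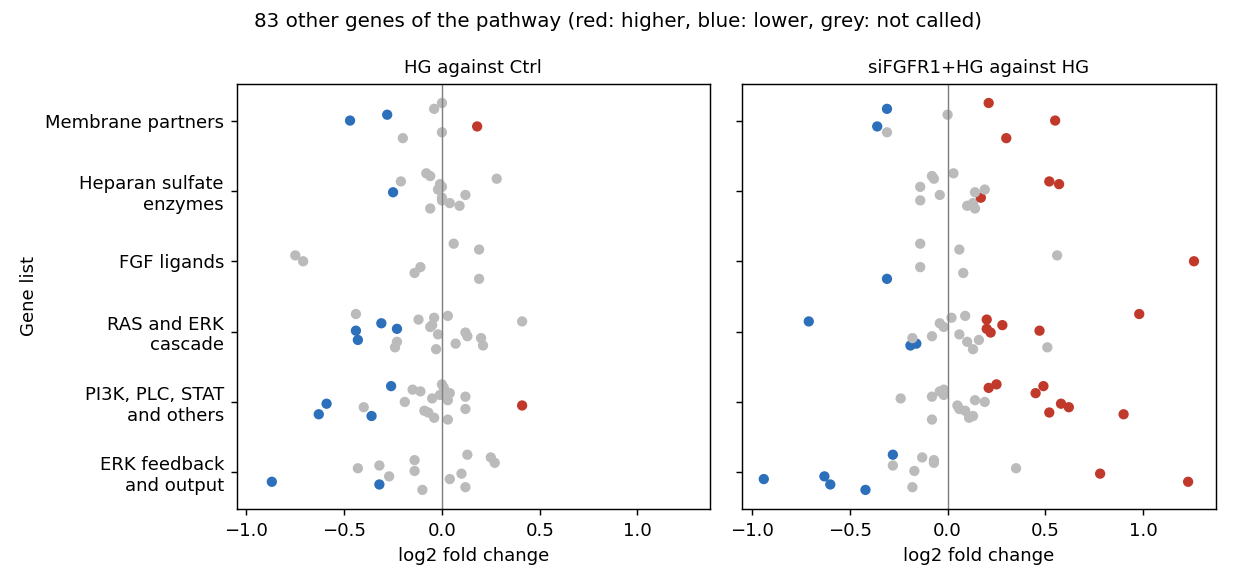
Log2 fold change of the 83 other tested pathway genes, 1 point each, in 6 lists for HG against Ctrl (left) and siFGFR1+HG against HG (right); red passed as higher, blue as lower and grey did not pass with edgeR's quasi-likelihood test. On the right the PI3K, PLC and STAT list has 8 red points and 0 blue, and the ERK feedback and output list 2 red and 5 blue.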

How the data were processed

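RNA sequencing libraries of H9C2 cells (2 each of Ctrl, HG and siFGFR1+HG) were analysed from 1 deposited table. Per the submitters' processing notes, the tools were fastp, HISAT2 and StringTie, without versions. Those notes list build GRCh38, a human one, although the gene identifiers are rat, so the coordinates are those of the table and their build is unsure. The deposited counts are unscaled whole numbers per gene. For the deposited FPKM the authors divided by gene length and library size, and 0.0001 FPKM marks a count of 0. How counting treated strand and shared reads is not given in the sources used here; rows of a snoRNA inside Fgfr1, a microRNA inside Gpc1 and a gene opposite Gab1 had 0 counts.

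The test covered the 12229 genes that reached 1 FPKM in 2 or more libraries. It was the quasi-likelihood F test of edgeR 4.0.16 (R 4.3.3) after TMM scaling (0.994 to 1.01), on all 6 libraries with a mean for each group and 3 residual degrees of freedom. A Benjamini-Hochberg adjusted p under 0.05 made a call. Standard errors were derived from the F statistic, and intervals of a log2 difference use them. Alternatives used DESeq2 1.42.0 and limma 3.58.1.

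The 10 members and the lists were chosen with earlier results of these data known. Named are all members, the genes nearest in pattern, and from each list the 3 genes of smallest p that passed, of which some are not reported here. Sdc2, Kl, Il17rd, Fgf2, Fgf7, Fos, marker genes and neighbours of Fgfr1 were named after their values were seen, as were the motifs.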

Additional observations from a re-analysis of the deposited data

How the results depend on the processing

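Over 14 alternative settings of the 8 tested members, 87, 93 and 96 of 112 values in HG against Ctrl, siFGFR1+HG against HG and siFGFR1+HG against Ctrl kept their direction and side of the threshold. These totals include members that were uncalled and stayed so, and thus do not measure how often calls held. The calls of Fgfr2, Frs2 and Gpc1 in siFGFR1+HG against HG, and of Gpc1 against Ctrl, held in all 14. The 3 members called in HG against Ctrl became 1 with limma on log2(FPKM + 1), 1 on log2(FPKM + 0.1), 1 with only the groups compared in the fit, and 0 to 1 without a library; pathway genes went from 15 to 25 with DESeq2 and to 5 to 12 without a library. The 5 members called in siFGFR1+HG against HG became 3 with no filter and 3 to 4 without a library, and pathway genes went from 34 to 21 to 31 without a library. In siFGFR1+HG against Ctrl 1 to 2 of 3 members and 16 to 24 of 26 pathway genes passed without a library. Uncalled differences changed sign in HG against Ctrl for Fgfrl1 (log2 -0.05 to 0.13 without a library) and Frs3 (-0.23 to 0.61), and against Ctrl for Fgfr3 in siFGFR1+HG (-0.01 to 0.31). Where a library was left out, the lone sample of its group was assumed to vary like the others. The cause of these moves was not tested, beyond the fewer samples in such fits.

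With the replicate number as a block, called members were 2, 3 and 2 in HG against Ctrl, siFGFR1+HG against HG and siFGFR1+HG against Ctrl, and pathway genes 11, 29 and 24. Deviations of same-numbered libraries correlated at 0.06, 0.05 and -0.09 over genes between pairs of groups, so no broad deviation by number was seen. A batch that touched few genes or did not follow the numbers would not show in this measure. Low counts limit the precision for Fgfr4, at most 48, and for Fgfr1, at most 4, whatever the reason for them.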
